A study of Mus musculus with 51 samples.

Results

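RNA of 9 genes of fat breakdown and its adrenergic control was followed in mouse mesenchymal cells pushed toward fat by activation of Pparg. The genes are the lipases Pnpla2, Lipe and Mgll, the lipase partners Abhd5 and G0s2, the receptor Adrb3, the kinase subunit Prkar2b, the phosphodiesterase Pde3b and the glycerol channel Aqp7. They were chosen by name from this pathway, with earlier results of these data known. All 9 were found by symbol among the 53801 genes of the count table and passed its filter on low counts. RNA came from C3H/10T1/2-SAM cells, mouse mesenchymal cells able to become fat cells, which carry a catalytically dead Cas9 joined to VP64 together with an MS2-P65-HSF1 fusion, so that a guide RNA raises transcription of the gene it targets. Cells were transfected with 250 ng of plasmid in all, either empty vector (EV), a Pparg guide (P) or guides for Pparg and Ybx1 (PY). Every group, EV included, was given 5 µM rosiglitazone, an agonist of PPARG, on day 0, 48 hours after transfection. The labels do not state whether RNA of day 0 was taken before or after the drug. EV had 5 libraries on day 0, 6 on day 2 and 6 on day 4. P had 5, 6 and 6, and PY had 6, 5 and 6. Each library of a group came from a separate numbered experiment, 6 in all. The labels name no sort of transfected cells, and all libraries come from this line.

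Stored triglyceride is cut in steps. PNPLA2 (adipose triglyceride lipase) takes the first fatty acid, LIPE (hormone-sensitive lipase) acts mainly on diglyceride, and MGLL cuts the monoglyceride that is left into fatty acid and glycerol, which AQP7 lets out of the cell. ABHD5 activates PNPLA2 and G0S2 inhibits it. Catecholamines bind beta adrenergic receptors such as ADRB3, cyclic AMP rises, and protein kinase A, of which PRKAR2B is a regulatory subunit, phosphorylates LIPE and the perilipin coat of the droplet. Insulin opposes this through PDE3B, which degrades cyclic AMP.

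Promoter sequence of 7 of the 9 genes was available from RefSeq (GRCm38.p6), in 11 windows of 250 bases before an annotated start. Adrb3 and Pde3b had none. Sequences of 3 of these genes are shown because their RNA rose with the Pparg guide and their windows differ in matches to the core site read by PPARG and its relatives. Capitals mark matches to that core site, AGGTCA on either strand, or to its direct repeat with 1 base between, AGGTCANAGGTCA with up to 2 mismatches in the 12 fixed bases, which is called DR1 and contains the core site. Bases inside a GENCODE exon of the same gene were left off.
Aqp7, GRCm38.p6 chr4:41048140-41048386, minus strand: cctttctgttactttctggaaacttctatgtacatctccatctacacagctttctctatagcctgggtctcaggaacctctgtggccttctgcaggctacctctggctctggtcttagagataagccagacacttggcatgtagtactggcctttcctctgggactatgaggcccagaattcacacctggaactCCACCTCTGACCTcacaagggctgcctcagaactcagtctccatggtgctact
Abhd5, GRCm38.p6 chr9:122351366-122351607, plus strand: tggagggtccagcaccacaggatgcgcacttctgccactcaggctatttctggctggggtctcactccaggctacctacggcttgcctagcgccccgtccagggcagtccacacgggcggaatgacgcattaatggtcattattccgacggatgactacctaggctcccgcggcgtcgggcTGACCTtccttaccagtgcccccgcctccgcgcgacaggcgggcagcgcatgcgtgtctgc
Pnpla2, GRCm38.p6 chr7:141454938-141455187, plus strand: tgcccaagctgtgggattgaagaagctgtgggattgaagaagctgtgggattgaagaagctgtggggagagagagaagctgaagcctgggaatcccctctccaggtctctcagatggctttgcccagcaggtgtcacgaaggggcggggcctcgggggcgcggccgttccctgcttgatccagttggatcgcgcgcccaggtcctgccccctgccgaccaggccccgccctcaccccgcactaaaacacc
The Aqp7 window held a DR1 match with 2 mismatches, which begins 56 bases before the start, and the core site within it. The window of a second annotated Aqp7 start overlaps this one and held the same match and another DR1 match, which begins 101 bases before that start. The Abhd5 window held the core site alone, which begins 69 bases before the start. Neither match was found in the windows of Pnpla2, Lipe, Mgll, G0s2 or Prkar2b. Of 32851 RefSeq promoter windows of the same length, 14% held the core site and 3.24% held DR1. The cyclic AMP response element TGACGTCA (1.55% of all windows), CCAAT (33.8%) and TATAAA (12.4%) were in none of the 11 windows. TGACG, the shorter form of the cyclic AMP element and contained in it (17.8% of all windows), was in those of Abhd5 and G0s2. All motifs were searched on both strands. These are matches of letters and no measure of binding.

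Total counts ran from 3381870 to 114566739 per library with a median of 22.4 M, and the lowest totals were those of experiment 3 in PY on days 2 and 0. Levels are CPM, the counts of a gene scaled to the TMM-adjusted library size. Pparg stood at 45.8 to 64.5 CPM in EV on day 0 and at 128 to 330 CPM in P, a 4.69-fold difference (edgeR adjusted p = 0.000136), and these ranges did not overlap. Ybx1 was 3.24-fold higher in PY than in P on day 4 (adjusted p = 1.41e-09). The summed level of 7 fat cell markers (Adipoq, Plin1, Fabp4, Cidec, Cfd, Lpl and Cebpa) was 40.1 to 428 CPM in EV on day 4, 2705 to 11020 CPM in P and 1352 to 12900 CPM in PY. The sum of 7 mesenchymal markers had lower medians with the guides, 12440 CPM in EV, 9951 in P and 8771 in PY on day 2. On day 4 the medians were 15050, 11660 and 11740 CPM. The ranges overlapped, at 7543 to 15950 CPM in EV, 6381 to 11970 in P and 6593 to 11190 in PY on day 2. On day 4 they were 9923 to 19000, 7055 to 16000 and 6774 to 12960 CPM. Of other marker lists, 3 of 6 passed the filter on low counts for macrophages (Cd68, Csf1r and Lyz2, but not Adgre1, Ptprc and Itgam), 4 of 5 for endothelium (all but Cdh5), 3 of 5 for epithelium (all but Epcam and Cldn7) and 2 of 4 for brown fat (Cidea and Elovl3, but not Ucp1 and Dio2). Their sums reached at most 10.22, 49.4, 15.25 and 6.24 CPM in a library. The brown fat sum had medians of 0.0719 CPM in EV, 0.895 in P and 0.983 in PY on day 4. The part of these markers in the values below was not tested. In RNA of whole wells, more fat cells and more RNA per fat cell cannot be told apart for any of the values below. Libraries of different transfections are linked by experiment number, and p-values measure the spread between experiments within a group.

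With the Pparg guide, 8 of the 9 genes rose over EV on day 2 and on day 4, and Pde3b did not pass in this fit. None fell. The median difference of the 9 genes was 3.625 on the log2 scale on day 2 and 3.05 on day 4, where that of all 17015 genes tested was -0.02 and -0.06. Since the 9 genes were chosen with earlier results of these data known, this contrast and the shares below are a description and no test of the set. Of all genes tested, 2.84% passed on day 2 and 5.38% on day 4 (edgeR quasi-likelihood test, Benjamini-Hochberg adjusted p under 0.05 over all genes). Against the same EV libraries, PY gave 8 of 9 on both days, again without Pde3b, with backgrounds of 4.73% and 7.83%. On GRCm38 the genes lie on chromosome 7 (Lipe, 25379527 to 25398710, minus strand; Pnpla2, 141455198 to 141460743, plus; Pde3b, 114415281 to 114539251, plus), chromosome 6 (Mgll, 88724412 to 88828360, plus), chromosome 9 (Abhd5, 122351608 to 122381524, plus), chromosome 1 (G0s2, 193272161 to 193273217, minus), chromosome 8 (Adrb3, 27225776 to 27250616, minus), chromosome 4 (Aqp7, 41033074 to 41048139, minus) and chromosome 12 (Prkar2b, 31958476 to 32061296, minus), and counts are over all exons. The plot of CPM by group shows every library, and the plot of fitted folds shows their intervals. For groups whose libraries did not overlap, the share of all genes that separate in the same way was not computed.

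**Figure D1:**
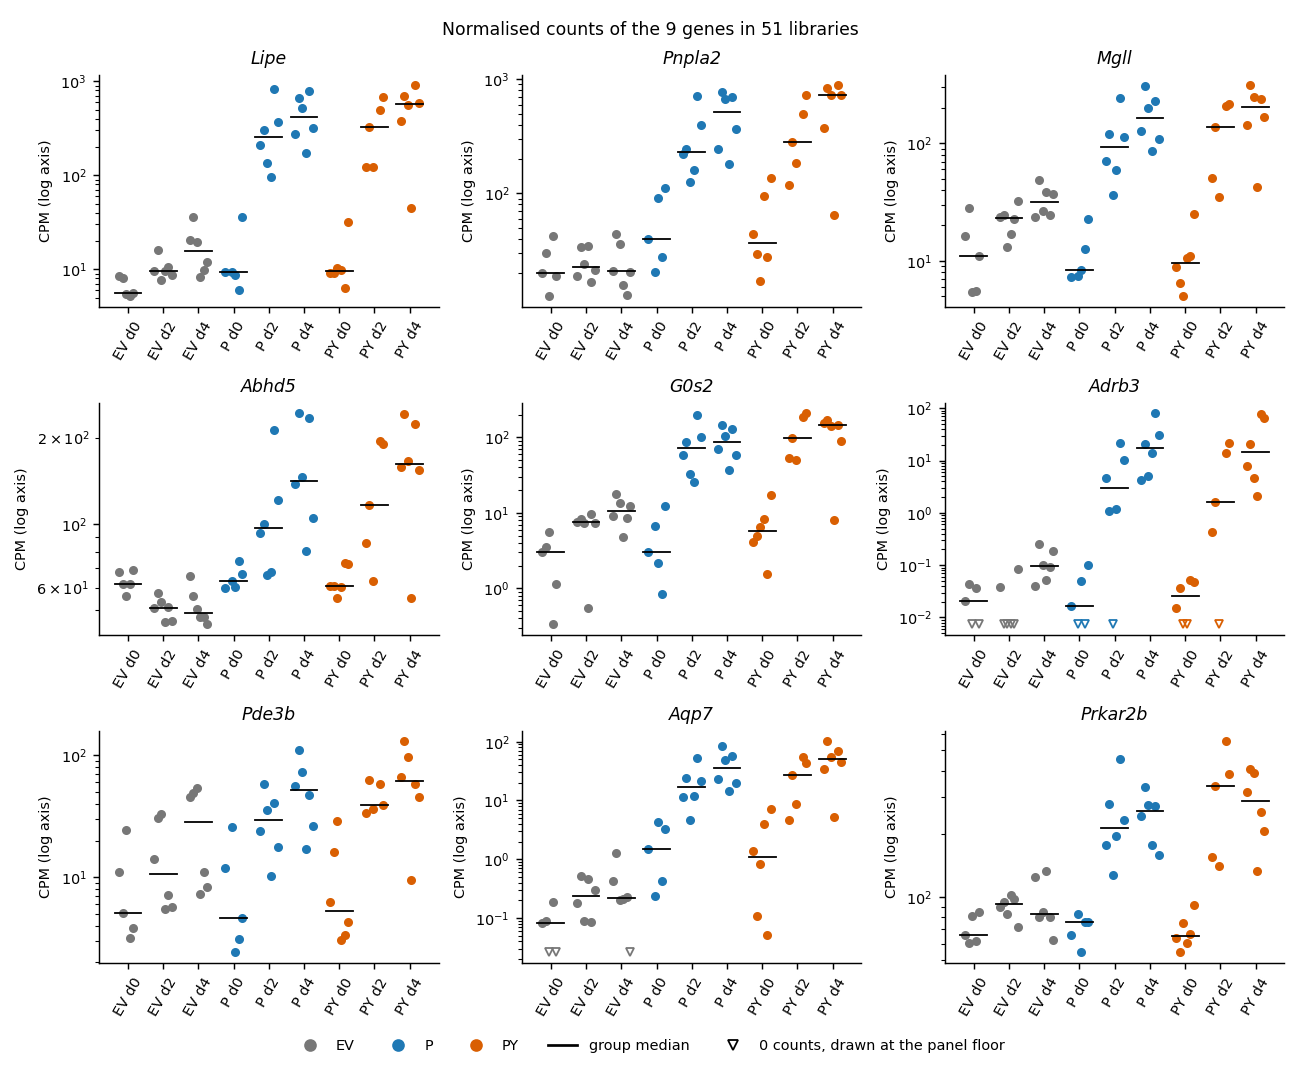
CPM (log axis) of each of the 9 genes in the 51 libraries, 1 panel per gene. Points are libraries coloured by transfection and placed by experiment within a group, bars are group medians (none is drawn where the median is 0), and open triangles are libraries with 0 counts. On days 2 and 4 the P points of Lipe, Pnpla2 and Aqp7 all stand above those of EV, while the Pde3b points of EV, P and PY overlap on day 4.

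Pnpla2, the triglyceride lipase, was at 12.7 CPM in the lowest EV library of day 4, 20.7 in the median one and 43.8 in the highest. In P it was at 182, 520 and 766 CPM. The groups did not overlap, and the fold was 19.7 (95% interval 8.96 to 43.2, edgeR adjusted p = 1.16e-06). On day 2 the EV libraries lay at 16.8, 22.7 and 34.7 CPM, and the P libraries at 125, 231 and 710 CPM. Every P library was again above every EV library, and the fold was 12.4 (5.80 to 26.7, adjusted p = 2.54e-05). EV stayed near 25 CPM on all 3 days, with group means of 24.7 ± 11.7 CPM (SD, n = 5), 24.9 ± 7.70 (n = 6) and 24.9 ± 12.2 (n = 6).

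Lipe, the hormone-sensitive lipase, showed a larger difference on day 2, 31.0-fold (13.8 to 69.6, adjusted p = 3.97e-07). The lowest, median and highest EV libraries of that day were at 7.695, 9.64 and 16.1 CPM, and those of P at 94.9, 258 and 821.5 CPM. On day 4 they were at 8.28, 15.7 and 36.0 CPM in EV and at 174, 422 and 784 CPM in P. P was above EV in all libraries of both days, and the fold of day 4 was 25.8 (11.7 to 57.2, adjusted p = 3.90e-07). Exon bases of Lipe (918 of 5886) also belong to 4732471J01Rik on the other strand, and the strand setting of the count is not given in the sources used here, so reads of that stretch cannot be assigned between them.

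Mgll, the monoglyceride lipase, differed less. It was at 13.2, 23.1 and 32.4 CPM (lowest, median, highest) in EV on day 2 and at 36.3, 92.55 and 244 CPM in P, a fold of 4.84 (2.57 to 9.11, adjusted p = 0.00134). The groups did not overlap, but the lowest P library stood only just above the highest EV library. On day 4 the values were 23.7, 31.85 and 48.6 CPM in EV and 85.75, 164 and 311 CPM in P, and the fold was 5.325 (2.82 to 10.04, adjusted p = 0.000320). Without experiment 5 the day 2 difference was 3.63-fold and did not pass (adjusted p = 0.0881).

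Abhd5, the co-activator of PNPLA2, rose least among the genes that passed on day 2. EV libraries lay at 45.4, 50.99 and 57.5 CPM on day 2 and at 44.7, 48.9 and 66.0 CPM on day 4. P libraries lay at 66.2, 96.5 and 213 CPM and at 80.8, 141.5 and 243 CPM. P was above EV throughout, 2.175-fold on day 2 (1.53 to 3.10, adjusted p = 0.00616) and 3.03-fold on day 4 (2.12 to 4.34, adjusted p = 3.41e-05). The day 2 result turned on experiment 5, whose P library held the 213 CPM. Without it the fold was 1.78 (adjusted p = 0.0887), without all of experiment 5 it was 1.77 (adjusted p = 0.209) and without experiment 6 it was 2.06 (adjusted p = 0.0779). Abhd5 shares 950 exon bases with A730085K08Rik on the opposite strand.

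G0s2, the PNPLA2 inhibitor, rose on both days. In EV of day 2 it was at 0.555, 7.50 and 9.62 CPM and in P at 25.8, 73.4 and 197.5 CPM, a fold of 12.3 (5.16 to 29.5, adjusted p = 0.000186). The low EV value belonged to experiment 4. On day 4 the values were 4.79, 10.7 and 17.6 CPM in EV and 36.6, 88.1 and 146.0 CPM in P. No P library fell within the EV range on either day, and the fold of day 4 was 8.29 (3.55 to 19.4, adjusted p = 0.000669).

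Adrb3, the beta adrenergic receptor typical of rodent fat, was almost absent without the guide. EV had 5 counts in 6 libraries on day 2 (0.0284 CPM, exact 95% Poisson interval 0.009215 to 0.0662) and 17 counts in 6 libraries on day 4 (0.132 CPM, 0.0769 to 0.211). P had 1158 counts on day 2 (7.02 CPM, 6.62 to 7.435) and 3523 on day 4 (28.6 CPM, 27.7 to 29.6), and these intervals cover counting error only. By library, P of day 2 was at 0, 2.96 and 22.0 CPM (lowest, median, highest) and P of day 4 at 4.29, 17.1 and 80.2 CPM. On day 4 every P library was above every EV library. On day 2 the P library of experiment 3 was at 0 counts, which at its depth allows up to 0.324 CPM, and lay within the EV range. The fitted folds were 205 on day 2 (36.5 to 1157, adjusted p = 7.49e-05) and 193 on day 4 (42.7 to 870, adjusted p = 4.34e-06), and with so few EV counts they depend on the prior count of the fit. Without experiment 5 they were 96.6 and 108. Adrb3 shares 839 exon bases with Gm45470 on the opposite strand.

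Prkar2b, the regulatory subunit of protein kinase A that is abundant in fat, rose 2.71-fold on day 2 (1.88 to 3.90, adjusted p = 0.000404) and 2.58-fold on day 4 (1.80 to 3.71, adjusted p = 0.000352). On day 2 its libraries stood at 71.9, 92.2 and 103 CPM in EV and at 127, 214 and 455 CPM in P. On day 4 they stood at 62.6, 82.5 and 133 CPM in EV and at 157.7, 257 and 336 CPM in P. The groups did not overlap on either day. Of the 9 genes Prkar2b had the highest level per kilobase of exon in EV of day 4, 25.7 ± 7.57 CPM per kb (n = 6).

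Pde3b, the phosphodiesterase of the insulin arm, was the gene that did not pass. On day 4 it was at 7.24, 28.2 and 53.55 CPM in EV and at 16.95, 51.8 and 110.7 CPM in P, and the ranges overlapped. The fold was 1.89 (0.812 to 4.41, adjusted p = 0.630), and on day 2 it was 1.94 (0.827 to 4.56, adjusted p = 0.771). The EV libraries of experiments 1, 2 and 3 held 45.5, 49.1 and 53.55 CPM on day 4, and those of experiments 4, 5 and 6 held 7.24, 10.96 and 8.315 CPM. P was above EV in 6 of 6 experiments on both days. With the experiment as a replicate block Pde3b passed, at 2.27-fold on day 2 (adjusted p = 0.0265) and 2.10-fold on day 4 (adjusted p = 0.0293), and PY passed over EV at 3.36-fold (adjusted p = 0.000722) and 2.48-fold (adjusted p = 0.00425). With this block 5.47% and 10.1% of all genes passed in P over EV on days 2 and 4, and 10.2% and 15.8% in PY over EV.

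Aqp7, the channel that lets glycerol out of fat cells, was scarce in EV, with 44 counts in 6 libraries on day 2 (0.250 CPM, exact Poisson interval 0.1815 to 0.335) and 61 on day 4 (0.474 CPM, 0.362 to 0.608). These Poisson intervals cover counting error only. P had 3330 counts on day 2 and 4848 on day 4. By library, P stood at 4.64, 16.7 and 53.8 CPM on day 2 and at 14.4, 36.2 and 85.1 CPM on day 4. The highest EV libraries were at 0.513 and 1.25 CPM, so the groups did not overlap. Fitted folds were 78.4 on day 2 (22.9 to 269, adjusted p = 7.17e-06) and 94.9 on day 4 (28.5 to 316, adjusted p = 1.16e-06). Without experiment 5 the first was 47.8, and without the EV library of experiment 2 the second was 186.

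With both guides the same 8 genes passed over the same EV libraries. Lipe in PY of day 2 was at 124, 325, 123.5, 494 and 679 CPM in experiments 1, 2, 3, 5 and 6, 33.5-fold over EV (14.7 to 76.3, edgeR adjusted p = 2.11e-07). Pnpla2 was at 118, 280, 186, 499 and 722 CPM, 14.5-fold over EV (6.62 to 31.8, adjusted p = 9.29e-06). All 5 libraries stood above every EV library for both genes. Adrb3 was at 0.430, 1.65, 0, 13.75 and 21.9 CPM, with a fitted fold of 248.7 that was 134 with the replicate block and 138 without the library of experiment 6. The library at 0 was that of experiment 3, which overlaps EV. The other folds of day 2 were 105 for Aqp7, 17.6 for G0s2, 5.90 for Mgll, 3.499 for Prkar2b and 2.58 for Abhd5. Pde3b in PY was at 33.9 to 62.3 CPM on day 2, above the highest EV library (32.9 CPM), yet did not pass (2.905-fold, 1.19 to 7.10, adjusted p = 0.224). On day 4 the folds were 223 for Adrb3 (147 without experiment 5), 117 for Aqp7 (230 without the EV library of experiment 2), 29.9 for Lipe, 24.3 for Pnpla2, 10.8 for G0s2, 5.78 for Mgll, 3.20 for Abhd5, 3.02 for Prkar2b and 2.32 for Pde3b. PY did not overlap EV on day 4 for Lipe, Pnpla2, Adrb3 and Aqp7, and the share of all genes that did not overlap was not computed. For Mgll, Abhd5, G0s2 and Prkar2b only the PY library of experiment 4 reached into the EV range.

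**Figure D2:**
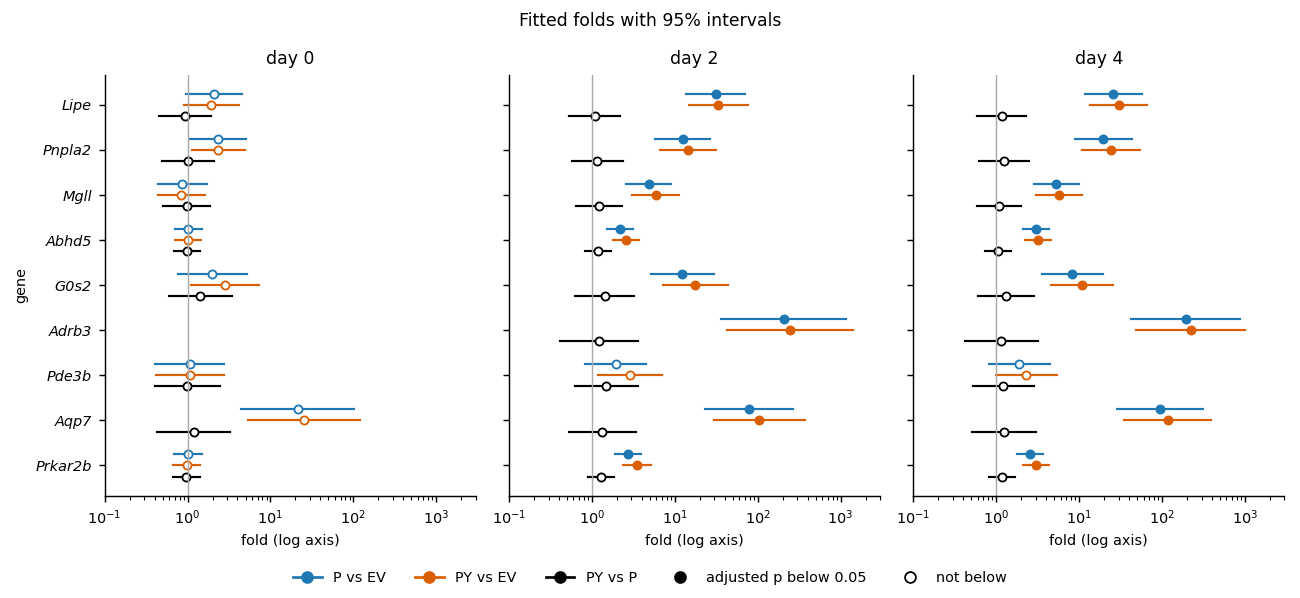
Fitted folds (log axis, points) with 95% intervals (lines) for P over EV, PY over EV and PY over P, 1 panel per day. Filled points passed at an adjusted p below 0.05, and Adrb3 is left out on day 0, where all groups had 6 counts or fewer. On days 2 and 4 every gene but Pde3b has filled points over EV, and no PY over P point is filled.

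The genes were also ranked by level per kilobase of exon, since longer genes collect more reads. The length is that of all annotated exons of a gene together, so the order depends on the annotation. In P of day 4 the order was Pnpla2 (162 ± 84.5 CPM per kb, n = 6), G0s2 (104.5 ± 49.1), Lipe (77.7 ± 40.7), Prkar2b (66.5 ± 18.2), Mgll (34.9 ± 16.8), Abhd5 (26.5 ± 11.2), Aqp7 (14.7 ± 9.69), Adrb3 (7.61 ± 8.42) and Pde3b (6.04 ± 3.72). Neighbours in this order differ by less than the SD of the higher gene from Pnpla2 to Prkar2b, from Mgll to Abhd5 and from Aqp7 to Pde3b. This SD is between libraries and is not the spread of a difference between genes of the same library. Within the 6 libraries, G0s2 was above Pnpla2 per kilobase in 1 and Lipe in 0. In EV of day 4 the order began with Prkar2b (25.7 ± 7.57), G0s2 (12.6 ± 5.13), Abhd5 (8.725 ± 1.32) and Pnpla2 (8.24 ± 4.04), and ended with Aqp7 (0.137 ± 0.158) and Adrb3 (0.0359 ± 0.0249). Lipe moved from the seventh place in EV to the third in P.

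Day 0 stands 48 hours after transfection. No gene of the 9 passed in P over EV, where 0.00588% of all genes passed, or in PY over EV, where 0.047% did. At an unadjusted p under 0.05, Pnpla2 and Aqp7 differed in P and Pnpla2, G0s2 and Aqp7 in PY, as did 1.42% and 2.1% of all genes. DESeq2 called Aqp7 in both (adjusted p = 0.0471 and 0.00242), among 4 and 21 of all genes. Aqp7 in EV was at 0.0818, 0.0873, 0, 0.185 and 0 CPM in experiments 1 to 5, 11 counts in all (0.08905 CPM, exact Poisson interval 0.04445 to 0.159). In P it was at 1.51, 0.2385, 4.33, 0.421 and 3.27 CPM in experiments 1, 3, 4, 5 and 6, 438 counts in all (1.93 CPM, 1.76 to 2.12). Both Poisson intervals cover counting error only and not the spread between libraries. Every P library was above every EV library, and the share of all genes that separate in this way was not computed. The fitted fold was 21.35 (4.425 to 103) at an edgeR adjusted p of 0.774, or 0.355 with the experiment as a replicate block. In PY the fold was 25.2 (5.30 to 120, adjusted p = 0.217), and 14.4 without experiment 6, and the groups overlapped.

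Lipe on day 0 was at 8.44, 7.99, 5.42, 5.19 and 5.52 CPM in EV and at 9.40, 9.44, 8.74, 5.98 and 35.6 CPM in P, a 2.09-fold difference (adjusted p = 1). The 35.6 CPM belonged to experiment 6, which has no EV library of that day. In the 4 experiments with both, P was 1.08 to 1.74 times EV. Pnpla2 was at 20.03, 29.9, 12.6, 42.5 and 18.8 CPM in EV and at 39.75, 20.6, 91.1, 27.8 and 110.5 CPM in P, and within experiments P was 1.48 to 2.14 times EV. The folds in P were 1.02 for Abhd5 (0.697 to 1.504) and 1.003 for Prkar2b (0.678 to 1.485). Adrb3 had 3, 6 and 4 counts in EV, P and PY, too few for a fold. The summed fat cell markers of day 0 were 7.26 to 21.3 CPM in EV and 12.04 to 350 CPM in P, with the highest P value in experiment 6, and their part in the Lipe and Pnpla2 values was not tested.

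Between day 0 and day 2, 7 of the 9 genes rose in P, where 14% of all genes changed, and 9 of 9 rose in PY, where 22.8% did. In EV none passed (7.3% of all genes changed, and DESeq2 called none of the 9). G0s2 had an unadjusted p under 0.05 in EV, as did 22.2% of all genes. Lipe rose 23.56-fold in P (adjusted p = 2.82e-06), G0s2 17.0-fold, Aqp7 10.7-fold, Mgll 9.25-fold, Pnpla2 5.35-fold and Prkar2b 3.44-fold. Adrb3 had 6 counts in P on day 0 and 1158 on day 2. Mgll was at 7.325 to 22.8 CPM in P on day 0 and at 5.415 to 28.0 CPM in EV, and these ranges overlapped. Abhd5 was 1.70-fold higher in P (adjusted p = 0.0518) and Pde3b 3.224-fold (adjusted p = 0.0895), and both passed with the experiment as a replicate block (adjusted p = 0.0291 and 0.000240), where 28.6% of all genes did. Pde3b also passed without experiment 3 (5.52-fold, adjusted p = 0.0188), and Abhd5 in 4 of 17 leave-out fits. Without experiment 5, Pnpla2 was 3.51-fold (adjusted p = 0.0877) and Aqp7 6.27-fold (adjusted p = 0.0538) higher, neither of which passes, and 5 genes passed. Lipe was 38.5-fold and G0s2 26.6-fold higher without the P library of experiment 6 on day 0, and without experiment 5 they were 14.3-fold and 10.25-fold higher. Aqp7 was 16.8-fold higher without experiment 4.

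Whether the gap between P and EV itself widened from day 0 to day 2 was tested as an interaction. Lipe passed, with a 14.9-fold larger difference on day 2 (3.89 on the log2 scale, adjusted p = 0.0342, and 0.00399 with the replicate block), in a comparison where 0.0588% of all genes did, and 0.094% with the block. This call was lost in 16 of 28 leave-out fits, among them the fit without experiment 5 (9.51-fold, adjusted p = 0.935) and each fit without 1 of the EV libraries of experiments 1 and 2 on day 0. Pnpla2, Mgll, Abhd5, G0s2 and Prkar2b had an unadjusted p under 0.05 only, a cut that 3.21% of all genes met. DESeq2 called Adrb3 besides Lipe, among 58 of all genes. Adrb3 had only 3 counts in EV and 6 in P on day 0, and 5 in EV on day 2. It did not pass in edgeR without the replicate block or with it (adjusted p = 0.733 with the block). The same test from day 2 to day 4 called none of the 9 genes and 0% of all genes.

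From day 2 to day 4 no gene of the 9 passed in any transfection, by edgeR without a block or by DESeq2, where 0.0353% of all genes changed in EV, 1.28% in P and 0% in PY. Only Adrb3 of the 9 had an unadjusted p under 0.05, in P and in PY, where 18.1% and 7.02% of all genes did. With the experiment as a replicate block Adrb3 rose 4.66-fold in P (adjusted p = 0.000408) and 5.23-fold in PY (adjusted p = 0.000987). It was the 1 gene of the 9 that passed with the block, where 20.2% of all genes did in P and 5.69% in PY. In P, Adrb3 went from 4.72 to 4.29 CPM in experiment 1, from 1.06 to 20.55 in experiment 2, from 0 to 5.17 in experiment 3, from 1.19 to 13.7 in experiment 4, from 22.0 to 80.2 in experiment 5 and from 10.1 to 30.2 in experiment 6. It was higher on day 4 in 5 of these 6 experiments and in 5 of 5 of PY. Without the P library of experiment 5 on day 2 the rise in P was 7.18-fold and passed without a block too (adjusted p = 0.0382). G0s2 stood at 1.085 times its day 2 level in P and 0.990 times in PY.

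Between PY and P, which differ by the Ybx1 guide, none of the 9 genes passed on any day. None of the 9 had an unadjusted p under 0.05, where 0.641%, 0.999% and 0.641% of all genes did on days 0, 2 and 4. DESeq2 and the fit with the replicate block called none of the 9. By edgeR without the block, 0.0294%, 0.0118% and 0.0176% of all genes passed on those days. On day 4 the PY over P folds ran from 1.05 for Abhd5 to 1.30 for G0s2. The 95% intervals bound the difference to 0.743 to 1.49 times for Abhd5 and to 0.819 to 1.67 times for Prkar2b, but only to 0.587 to 2.29 times for Lipe, 0.623 to 2.46 times for Pnpla2 and 0.420 to 3.19 times for Adrb3. PY was above P in 5 of 6 experiments for Lipe, Pnpla2, Mgll, G0s2, Pde3b and Aqp7. It was above P in 4 of 6 for Prkar2b and in 3 of 6 for Abhd5 and Adrb3. The share of all genes with such directions was not computed. For every gene at 5 of 6 the exception was experiment 4. Its PY library of day 4 was the lowest of its group for 9 of 9 genes, at 45.0 CPM for Lipe where the other 5 stood at 379 to 913, and at 8.09 CPM for G0s2 where the others stood at 89.1 to 171.5. Its fat cell markers summed to 1352 CPM, against 6472 to 12900 CPM in the others, while Pparg was at 178 CPM against 211 to 412 CPM. The part of either in the low values was not tested. Without this library the PY over P folds of day 4 ran from 1.201 to 1.55, with none passing, and those over EV were 36.3 for Lipe, 29.4 for Pnpla2 and 13.1 for G0s2.

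**Figure D3:**
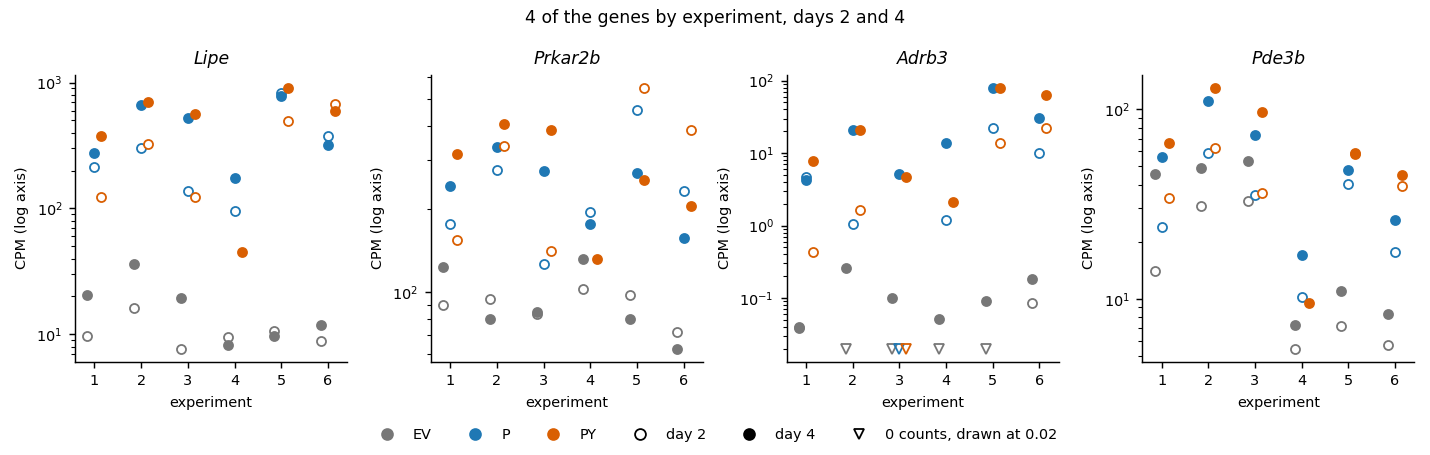
CPM (log axis) of Lipe, Prkar2b, Adrb3 and Pde3b by experiment (horizontal axis, experiments 1 to 6) on days 2 (open) and 4 (filled). Colours are the transfections and triangles are libraries with 0 counts, drawn at 0.02. Pde3b is lower in experiments 4 to 6 than in 1 to 3 in EV on both days, Adrb3 of P and PY is highest in experiments 5 and 6, and the PY library of experiment 4 on day 4 is low for Lipe.

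The experiments differed in how far the genes rose. On day 2 the P library of experiment 5 was the highest of its group for 8 of 9 genes, all but Pde3b, with fat cell markers at 8116 CPM and Pparg at 505 CPM, the highest values of that group. That of experiment 3 was the lowest for 6 of 9 genes, with fat cell markers at 1606 CPM and Pparg at 182 CPM, the lowest of the group. On day 4 the P library of experiment 2 was the highest for 7 of 9 genes and that of experiment 4 the lowest for 7 of 9. Fat cell markers of these libraries were at 11020 and 2705 CPM, while Pparg was at 207 and 206 CPM. Lipe spanned 8.66-fold between P libraries of day 2 and Abhd5 3.224-fold. The part of Pparg level or fat cell share in these spans was not tested. In experiment 3 Adrb3 was at 0 counts on day 2 in P and PY alike, where Lipe was at 137 and 124 CPM, and at 5.17 and 4.71 CPM on day 4. The PY library of day 2 in experiment 3 had the lowest total count of all, so its 0 counts allow up to 1.31 CPM. In experiment 5 Adrb3 reached 80.2 CPM in P and 78.7 CPM in PY on day 4, while in experiment 2 it was at 20.55 and 21.0 CPM. Fat cell markers of experiments 5 and 2 were at 9461 and 11020 CPM in P and at 10680 and 12900 CPM in PY. Pparg was at 370 and 207 CPM in P and at 412 and 211 CPM in PY. The part of either in the Adrb3 values was not tested.

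Ratios within a library do not depend on how libraries were scaled. They are given per kilobase of exon, with 0.5 added to each count and no test. The length is that of all annotated exons of a gene together, and which of them these cells use was not tested. Which gene of a pair stands higher depends on this length, while differences between groups do not. Abhd5 to Pnpla2, co-activator to lipase, was near even in EV of day 4, at a log2 ratio of 0.21 ± 0.65 (SD, n = 6, range -0.63 to 0.92), and lower in all P libraries, at -2.52 ± 0.49 (range -3.19 to -1.80). On day 2 the ranges were -0.59 to 0.63 in EV and -2.71 to -1.90 in P, which did not overlap either. On day 0 P libraries spanned -1.70 to 0.63. G0s2 to Pnpla2, inhibitor to lipase, was 0.64 ± 0.43 in EV of day 4 and -0.58 ± 0.33 in P, where the highest P library (0.02) was below the lowest EV library (0.10). On day 2 it was 0.18 in the median EV library and -0.13 in the median P library, and the groups overlapped. Lipe to Pnpla2 was -2.14 in the median EV library of day 2 (range -2.82 to -1.62) and -0.93 in the median P library (range -1.72 to -0.63). Per kilobase, Lipe thus stood below Pnpla2 in both. In counts not divided by exon length the median log2 ratio was -1.18 in EV (range -1.85 to -0.65). In P it was 0.03 (range -0.75 to 0.33). Pde3b to Adrb3 was 3.88 or more in every EV library of day 4 and ran from -2.19 to 2.37 in P. Adrb3 had only 1 to 8 counts in these EV libraries, so their ratios depend on depth and on the 0.5 added.

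**Figure D4:**
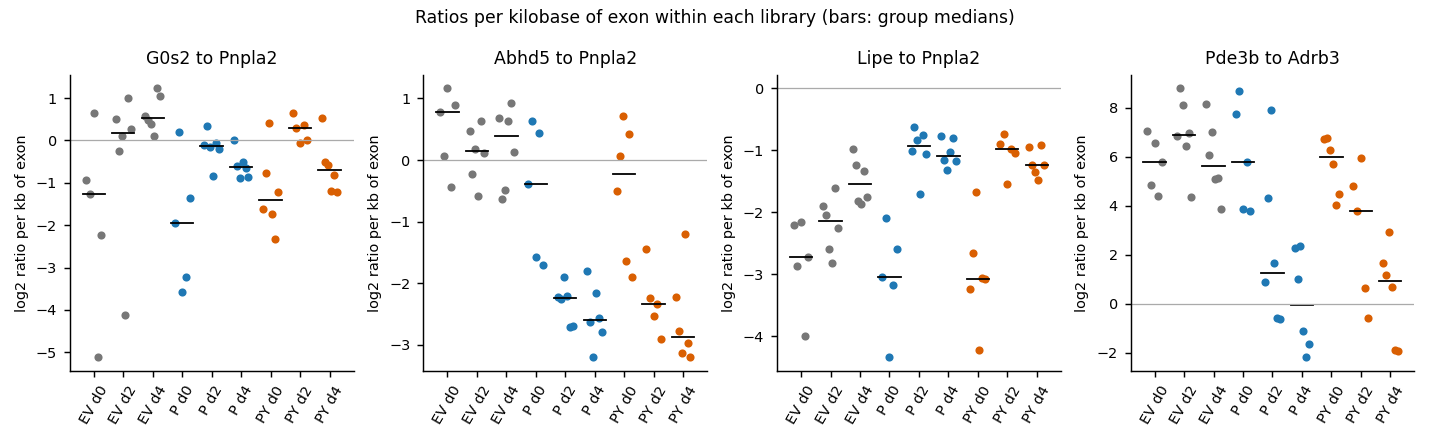
Log2 ratios of levels per kilobase of exon within a library (vertical axis) by group for 4 pairs of genes; points are libraries and bars group medians. On days 2 and 4 Abhd5 to Pnpla2 lies between -0.63 and 0.92 in EV and below every EV library in all P and PY libraries.

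Profiles over the 51 libraries were compared by the root mean square difference of log2 CPM after centring each gene, a description in which all genes share depth and experiments. Lipe was closest to Acsl1 (0.528), which activates fatty acids, and to Abhd15 (0.663). Pnpla2 was closest to Agpat2 (0.533), an enzyme of triglyceride synthesis, and to Gm47267 (0.630). G0s2 was closest to Cebpa (0.649), a transcription factor of fat cells, and to Sort1 (0.881). Abhd5 was closest to Eci1 (0.176) and Sowahc (0.211), and Prkar2b to Decr1 (0.250) and Hadha (0.313); Eci1, Decr1 and Hadha act in fatty acid oxidation. These 2 genes also vary least, with SDs of 0.747 and 0.963 log2 units, which leaves less room for a difference. Mgll was closest to Slc25a10 (0.618) and Ptk2b (0.644), Pde3b to Selenop (0.565) and Slc24a3 (0.621), Aqp7 to Aldh3b2 (1.065) and Fabp4 (1.15), and Adrb3 to Pnpla3 (0.823). Among the 9 genes themselves the closest pairs were Abhd5 with Prkar2b (0.484), G0s2 with Lipe (0.913) and Lipe with Pnpla2 (0.953).

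The wider pathway was read from 68 further genes, of which 62 passed the filter on low counts. These lists too were chosen with earlier results of these data known, so their counts are a description. In P over EV, 17 of the 62 rose on day 2 and 22 on day 4, and none fell (background 2.84% and 5.38%, as above). With the replicate block 23 rose on day 2, and 25 rose and 1 fell on day 4 (background 5.47% and 10.1%). The block added Adcy6, Akap1, Plin4, Abhd12, Insr and Akt2 on day 2, and Adrb1, Plin4 and Ddhd2 on day 4, named here after their values were seen. The gene that fell was the cyclase Adcy7 (0.698-fold, adjusted p = 0.0223, and 0.481 without the block). Their median log2 difference was 0.24 and 0.18, where that of the 9 genes was 3.625 and 3.05. Of the receptors, Adrb1 was 3.05-fold higher on day 2 (adjusted p = 0.0349) at 0.316 to 0.853 CPM in P, and 2.39-fold on day 4 (adjusted p = 0.0937, and 0.02975 with the replicate block). Of the alpha-2 receptors, which oppose lipolysis, only Adra2a was abundant enough to test, at 0.814-fold (0.304 to 2.18, adjusted p = 0.934). Per kilobase, Adrb3 had a lower level than Adrb1 in EV of day 4 (0.0359 against 0.0788 CPM per kb) and a higher level in P (7.61 against 0.188 CPM per kb). Of 6 antilipolytic receptors tested 3 rose on day 4, all of them receptors for small metabolites, Ffar2 (116-fold, adjusted p = 4.89e-07), Hcar2 (68.55-fold, adjusted p = 3.68e-07) and Hcar1 (17.8-fold, adjusted p = 0.000124). Ffar2 was at 0 to 0.418 CPM in EV and 4.597 to 28.8 CPM in P. Hcar2 had 7 counts in the 6 EV libraries, 3 of them at 0, so its fold depends on the prior count of the fit.

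Of 10 G proteins and adenylyl cyclases 2 rose on day 4, the cyclases Adcy5 (15.6-fold, adjusted p = 5.46e-06) and Adcy6 (1.52-fold, adjusted p = 0.0112). Of 6 subunits and anchors of protein kinase A besides Prkar2b, the anchor Akap1 (1.73-fold, adjusted p = 0.0215) and the catalytic subunit Prkaca (1.42-fold, adjusted p = 0.0281) rose. In P over EV on days 2 and 4, none of 7 other phosphodiesterases passed by edgeR, with or without the replicate block. None of 4 genes of the natriuretic peptide arm did in these comparisons. In the insulin arm, which acts through PDE3B, 3 of 7 genes rose on day 4, Irs2 (1.925-fold), Insr (1.72-fold) and Akt2 (1.45-fold).

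Of 7 droplet coat proteins and lipase inhibitors 3 rose on day 4, Cidec (160-fold, adjusted p = 4.34e-06), Plin1 (110.0-fold, adjusted p = 4.945e-06) and Plin2 (3.55-fold, adjusted p = 0.00440). PLIN1 is the coat protein that holds ABHD5 until it is phosphorylated. Of 8 other lipid hydrolases 5 rose, led by Pnpla3 (131-fold, adjusted p = 6.59e-06), a relative of Pnpla2, Lpl (24.9-fold, adjusted p = 5.20e-05), which frees fatty acids outside the cell, Ces1f (8.84-fold) and Ces1d (6.86-fold). Pnpla3 had 9 counts in the 6 EV libraries, 3 of them at 0, so its fold depends on the prior count of the fit. Of 5 genes that handle the glycerol and fatty acids released, 4 rose, Gpd1 (106-fold), the fatty acid carrier Fabp4 (44.2-fold), Acsl1 (28.9-fold) and glycerol kinase Gk (3.16-fold). Plin1, Cidec, Fabp4 and Lpl are also in the fat cell marker list. PY over EV gave 25 of 62 genes higher on day 4, or 26 higher and 1 lower with the block, and PY over P gave none.

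**Figure D5:**
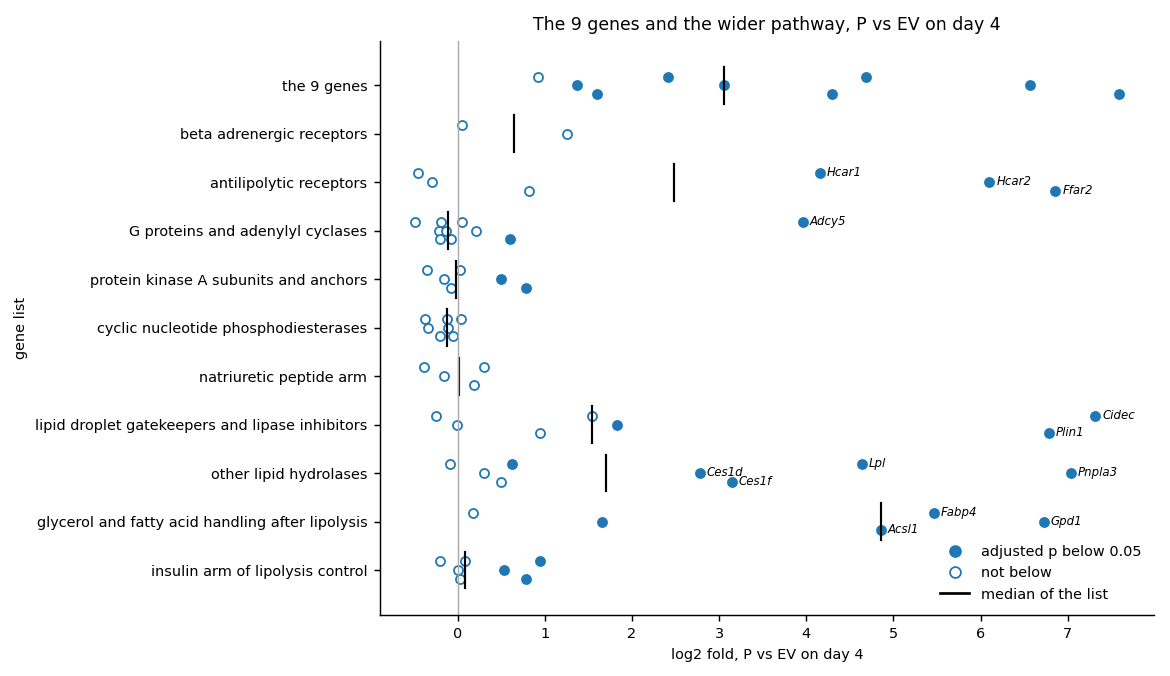
Log2 fold of P over EV on day 4 (horizontal axis) for the 9 genes and 10 lists of the wider pathway (rows). Filled points passed at an adjusted p below 0.05 and bars are list medians. The 9 genes, the droplet proteins, the other hydrolases and the genes for products of lipolysis hold most of the filled points, and none of the phosphodiesterases is filled.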

How the data were processed

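RNA of 51 libraries was measured by sequencing of ribosome-depleted total RNA with a stranded kit, per the labels' protocols. The deposited table holds raw counts per Ensembl gene; the authors used STAR 2.5.3a, featureCounts 1.5.2 and edgeR 3.22.0 with mm10 (GRCm38), per the submitters' processing notes. The annotation release, strand setting and treatment of multiply mapped reads are not given in the sources used here. GENCODE matched 53706 gene IDs and not 95.

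Counts were tested with edgeR 4.0.16 (quasi-likelihood, limma 3.58.1, R 4.3.3). Genes kept by filterByExpr (17015) were scaled by TMM and fitted with 9 group means and no block. Tests are two-sided, with Benjamini-Hochberg adjustment over all genes tested and a threshold of 0.05. Intervals of 95% use the log2 fold change over the root of F as its SE. The method was tested on simulated data.

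The experiment number in the labels pairs libraries. Deviations from group means correlated at a median r of 0.364 over 192 pairs of the same experiment and -0.0886 over 963 other pairs. A fit with this replicate block is given where it changes a call of the 9 genes or a count of the wider pathway described in the text. Ratios of genes within a library are per kilobase of exon, with 0.5 added to each count. Named genes follow a fixed rule: the 9 genes, Pparg and Ybx1 as the check of the guides, up to 4 genes per role group of the pathway list with the largest log2 change in P over EV on day 4 among those that passed, every beta and alpha-2 receptor kept by the filter, and for each of the 9 the 2 genes of closest profile. Some genes that the rule names are not reported here. The 9 genes and the lists were chosen with earlier results of these data known. Alternatives were DESeq2 1.42.0, RLE scaling, no filter, the compared groups alone, and leaving out libraries or experiments.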

Additional observations from a re-analysis of the deposited data

Results flagged for a closer look

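Of 81 groups of 5 or 6 libraries (9 genes in 9 groups), 7 held a library far from the others by Dixon's test, which flags about 1 group in 20 by chance. Lipe was at 16.11 CPM in EV of day 2 in experiment 2, where the other libraries held 7.695 to 10.66 CPM. On day 0 experiment 6 stood high for Lipe in P (35.57 CPM against 5.977 to 9.444) and in PY (31.73 against 6.39 to 10.29), and for Mgll in PY (25.02 against 5.005 to 10.91). G0s2 was low in EV of day 2 in experiment 4, at 0.5552 CPM against 7.341 to 9.622. Adrb3 was at 80.21 CPM in P of day 4 in experiment 5, against 4.291 to 30.21. Aqp7 was at 1.254 CPM in EV of day 4 in experiment 2, against 0 to 0.4345.

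Some differences changed between days or transfections. The Lipe difference between P and EV was larger on day 2 than on day 0 by 3.894 on the log2 scale (edgeR adjusted p = 0.0342). Abhd5 from day 0 to day 2 was higher in 5 of 5 experiments in P and lower in 5 of 5 in EV, a log2 gap of 1.087 that did not pass when tested (adjusted p = 0.872). The same gap for PY was 1.355, with 5 of 5 experiments higher in PY, and was not tested. Prkar2b was higher in PY than in EV in 5 of 5 experiments on day 2 and lower in 5 of 5 on day 0, a log2 gap of 1.85 that was not tested.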

How the results depend on the processing

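The members that passed in P over EV and in PY over EV on days 2 and 4 numbered 8 with RLE scaling, no filter, DESeq2 and without the 2 libraries of lowest total count. They numbered 9 with the replicate block, which added Pde3b. The compared groups alone gave 8 on all but P over EV of day 2, which gave 7 because Adrb3 did not pass the filter there. Leaving out a library or an experiment gave 6 to 8 for P over EV on day 2 and 8 for the other 3, 5 to 9 for P from day 0 to day 2, 8 to 9 for PY, 0 to 1 for P from day 2 to day 4, and 0 to 1 for the change of the P to EV difference from day 0 to day 2. With the block 1 gene, Adrb3, passed from day 2 to day 4 in P and 1 in PY. DESeq2 passed 1 gene, Aqp7, in P over EV and 1 in PY over EV on day 0, and 2 for the change from day 0 to day 2. Beyond these and the calls given beside the results, the block changed no call of the 9 genes. The cause of each change was not tested.

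Reversed directions were all of differences that did not pass under either setting. With a replicate block for experiment these were, as log2, Abhd5 -0.01, Adrb3 -0.319 for PY over EV, day 0, Pnpla2 -0.01 for PY over P, day 0, Lipe -0.056, Adrb3 -0.35 for PY over P, day 2, Adrb3 -0.184 for PY over P, day 4, Adrb3 -0.175 for EV, day 2 over day 0, Pnpla2 0.013 for EV, day 4 over day 2, Prkar2b 0.021 for P, day 4 over day 2, G0s2 0.156 for PY, day 4 over day 2, Adrb3 0.321 for the change of the P to EV difference from day 2 to day 4. With RLE size factors these were, as log2, Pde3b 0.017 for PY over P, day 0, Pnpla2 0.008 for EV, day 2 over day 0, Pnpla2 0.005 for EV, day 4 over day 2, Prkar2b 0.007 for P, day 4 over day 2. With no filter on low counts these were, as log2, Pnpla2 -0.004 for PY over P, day 0, Pnpla2 0.002 for EV, day 2 over day 0, Abhd5 -0.001 for EV, day 4 over day 2. Without the 2 libraries of lowest total count these were, as log2, Prkar2b -0.004 for P over EV, day 0, Pde3b -0.444 for PY over EV, day 0, Mgll 0.078, Abhd5 0.011 for PY over P, day 0, Pnpla2 0.001 for EV, day 2 over day 0, Prkar2b 0.019 for P, day 4 over day 2. In fits of the compared groups alone these were, as log2, Prkar2b -0.001 for P over EV, day 0, Pde3b 0.052 for PY over P, day 0, Pnpla2 0.005 for EV, day 4 over day 2. In DESeq2 these were, as log2, Pde3b 0.119 for PY over P, day 0, Pnpla2 0.018, Adrb3 -0.093 for EV, day 2 over day 0, Pnpla2 0.005 for EV, day 4 over day 2, Prkar2b 0.007 for P, day 4 over day 2, G0s2 0.001 for PY, day 4 over day 2.

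Leaving out a library or an experiment also reversed such small differences, whose lowest and highest log2 values were Mgll -0.611 to 0.246, Abhd5 -0.02 to 0.095, Adrb3 -0.27 to 0.551, Pde3b -0.677 to 0.706, Prkar2b -0.057 to 0.087 for P over EV, day 0, Mgll -0.681 to 0.329, Abhd5 -0.041 to 0.046, Adrb3 -0.368 to 0.45, Pde3b -0.444 to 0.697, Prkar2b -0.154 to 0.032 for PY over EV, day 0, Lipe -0.633 to 0.605, Pnpla2 -0.435 to 0.388, Mgll -0.451 to 0.348, Abhd5 -0.069 to 0.031, G0s2 -0.005 to 1.157, Adrb3 -0.5 to 0.362, Pde3b -0.53 to 0.761, Aqp7 -0.559 to 0.781, Prkar2b -0.154 to 0.015 for PY over P, day 0, Lipe -0.277 to 0.627, Pnpla2 -0.192 to 0.641, Adrb3 -0.575 to 1.162 for PY over P, day 2, Lipe 0 to 0.462, Mgll -0.075 to 0.356, Abhd5 -0.062 to 0.264, Adrb3 -0.342 to 0.992 for PY over P, day 4, Pnpla2 -0.16 to 0.281, Adrb3 -0.347 to 0.553 for EV, day 2 over day 0, Pnpla2 -0.272 to 0.2, Abhd5 -0.062 to 0.075, Aqp7 -0.283 to 1.037, Prkar2b -0.085 to 0.156 for EV, day 4 over day 2, G0s2 -0.08 to 0.557, Prkar2b -0.166 to 0.252 for P, day 4 over day 2, G0s2 -0.279 to 0.378, Prkar2b -0.438 to 0.203 for PY, day 4 over day 2, Lipe -0.458 to 0.261, Mgll -0.099 to 0.559, Adrb3 -0.846 to 0.805, Pde3b -0.368 to 0.29, Aqp7 -0.062 to 1.257, Prkar2b -0.238 to 0.208 for the change of the P to EV difference from day 2 to day 4.

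All genes passing without and with the block numbered 8 and 23 for PY over EV, day 0, 483 and 931 for P over EV, day 2, 805 and 1735 for PY over EV, day 2, 2 and 4 for PY over P, day 2, 916 and 1723 for P over EV, day 4, 1332 and 2695 for PY over EV, day 4, 1242 and 3746 for EV, day 2 over day 0, 6 and 3426 for EV, day 4 over day 2, 2377 and 4866 for P, day 2 over day 0, 217 and 3434 for P, day 4 over day 2, 3876 and 6052 for PY, day 2 over day 0, 0 and 969 for PY, day 4 over day 2, 10 and 16 for the change of the P to EV difference from day 0 to day 2. In edgeR and DESeq2 they numbered 1 and 4 for P over EV, day 0, 8 and 21 for PY over EV, day 0, 6 and 272 for EV, day 4 over day 2, 217 and 672 for P, day 4 over day 2, 0 and 29 for PY, day 4 over day 2, 10 and 58 for the change of the P to EV difference from day 0 to day 2. EV libraries with 0 counts allow up to 0.129 to 0.580 CPM of Adrb3 (6 libraries) and 0.139 to 0.580 CPM of Aqp7 (3 libraries), so smaller differences of these genes in EV were not detectable at this depth.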
